A study of Mus musculus with 12 samples.

Results

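Mammalian histones carry methyl and acetyl groups that are set and removed by a large set of enzymes, and 52 mouse genes for these enzymes and their closest partners are described here. They comprise PRC2 and PRC1, which are the Polycomb repressor complexes, with lysine and arginine methyltransferases, lysine demethylases, acetyltransferases, the 7 sirtuins and the deacetylase Hdac11. The genes were taken from the arrays by their symbol or by the symbol of their Entrez gene number. All 52 were found, on 103 spots, among 26228 genes with a symbol. Of the 52, 39 had several spots and 13 had 1.

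Acrylamide, a small reactive amide that the liver enzyme Cyp2e1 converts to the epoxide glycidamide, was given at a dose labelled 0.7 mM to female B6C3F1/Nctr mice, a hybrid strain. The groups were lung with acrylamide (arrays 28, 29 and 30), untreated lung (4, 5 and 6), liver with acrylamide (27, 29 and 30) and untreated liver (1, 3 and 4), with 3 arrays each. Controls were matched in age, but neither the age nor how and for how long acrylamide was given is stated in the labels. The series was deposited under a title on the epigenetic effects of acrylamide, which the acrylamide and control comparison addresses. Total RNA was labelled with Cy3 and each array carried 1 sample. Whether replicate arrays stand for different animals is not stated, so p-values measure only how these samples vary, which may be technical variation.

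Values below are scaled intensities, in which the 75th percentile of the spots of each array was set to 1000, and differences are in log2 units with the SE of the fit. The tissue entry of all 12 samples says liver, whereas 6 titles and source names say lung. All 10 hepatocyte markers (Alb, Apoa1 and others) were above background on every array, and their summed intensity was 15918 to 33352 on the 6 lung arrays and 2610472 to 4276032 on the 6 liver arrays. The 9 alveolar type 2 markers (Sftpc, Sftpb and others) summed to 848940 to 1097792 in lung and 57513 to 72713 in liver, and 1 of them in acrylamide livers and 2 in untreated livers were above background on no array. The marker levels thus follow the titles, which are used here. The unscaled 75th percentile of intensity was 839.4 to 1375.7 in lung and 294.5 to 621.5 in liver. Liver acrylamide 30 stood apart. Its negative control spots set a limit of 16.8 in unscaled intensity (2.35 to 4.45 elsewhere), 34287 of its spots exceeded it, and it correlated with the other acrylamide livers at 0.968 and 0.972, below all other pairs within a group.

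Polycomb complexes write marks of gene silencing: PRC2 methylates histone H3 at lysine 27 and PRC1 ubiquitinates histone H2A. Methylation of H3 at lysine 9 marks heterochromatin, whereas methylation at lysines 4, 36 and 79 and acetylation accompany transcription. Sirtuins are deacylases that consume NAD, and several of them work in mitochondria, which liver cells hold in large numbers. Many of these enzymes draw on metabolites of central metabolism, such as S-adenosylmethionine and acetyl-CoA.

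The tissues differed in these enzymes, and acrylamide changed none of them past the threshold. Between untreated lung and untreated liver, 31 of the 52 genes passed adjusted p under 0.05 (limma, Benjamini-Hochberg over all genes), with 18 higher and 13 lower in lung. Across all 23283 genes tested 73.4% passed, 30.5% higher and 42.9% lower in lung, so the share among the histone enzymes, 59.6%, lay below that of all genes. Sirt3, Hdac11 and Suv39h2 were the furthest below liver, and Setd7, Kat6a and Kdm4c the furthest above it. The median difference was 0.05 for the 52 genes and -0.34 for all genes.

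On the acrylamide arrays, which share no sample with the untreated ones, 33 of the 52 genes passed, 19 higher and 14 lower in lung, against 74.9% of all genes (30.6% higher and 44.3% lower). Both contrasts called 30 of the genes in the same direction, 17 higher and 13 lower in lung, against 67.9% of all genes, and none in opposite directions. Prmt5 passed in the untreated contrast alone, and Ash1l, Kdm6b and Sirt2 in the acrylamide contrast alone. In 30 genes the 6 lung arrays lay wholly to one side of the 6 liver arrays, 17 above and 13 below, against 67.2% of all genes (27.2% above and 40% below). Titles of lung arrays begin with the code 18 and those of liver arrays with 19, which was read here as the slide. The digit that follows was read as the slide row, and the labels do not say what these codes stand for. Read so, lung arrays shared 1 slide and liver arrays another, and the effects of slide and tissue cannot be told apart. In whole tissue, fewer cells of a type and less RNA per cell cannot be told apart either. Endothelial markers, 6 of 6 above background, summed to 123886 to 158019 in lung and 22556 to 26780 in liver, and proliferation markers, 7 of 7, to 12048 to 17141 in lung and 6407 to 9663 in liver. The part of cell makeup in these differences was not tested.

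**Figure D1:**
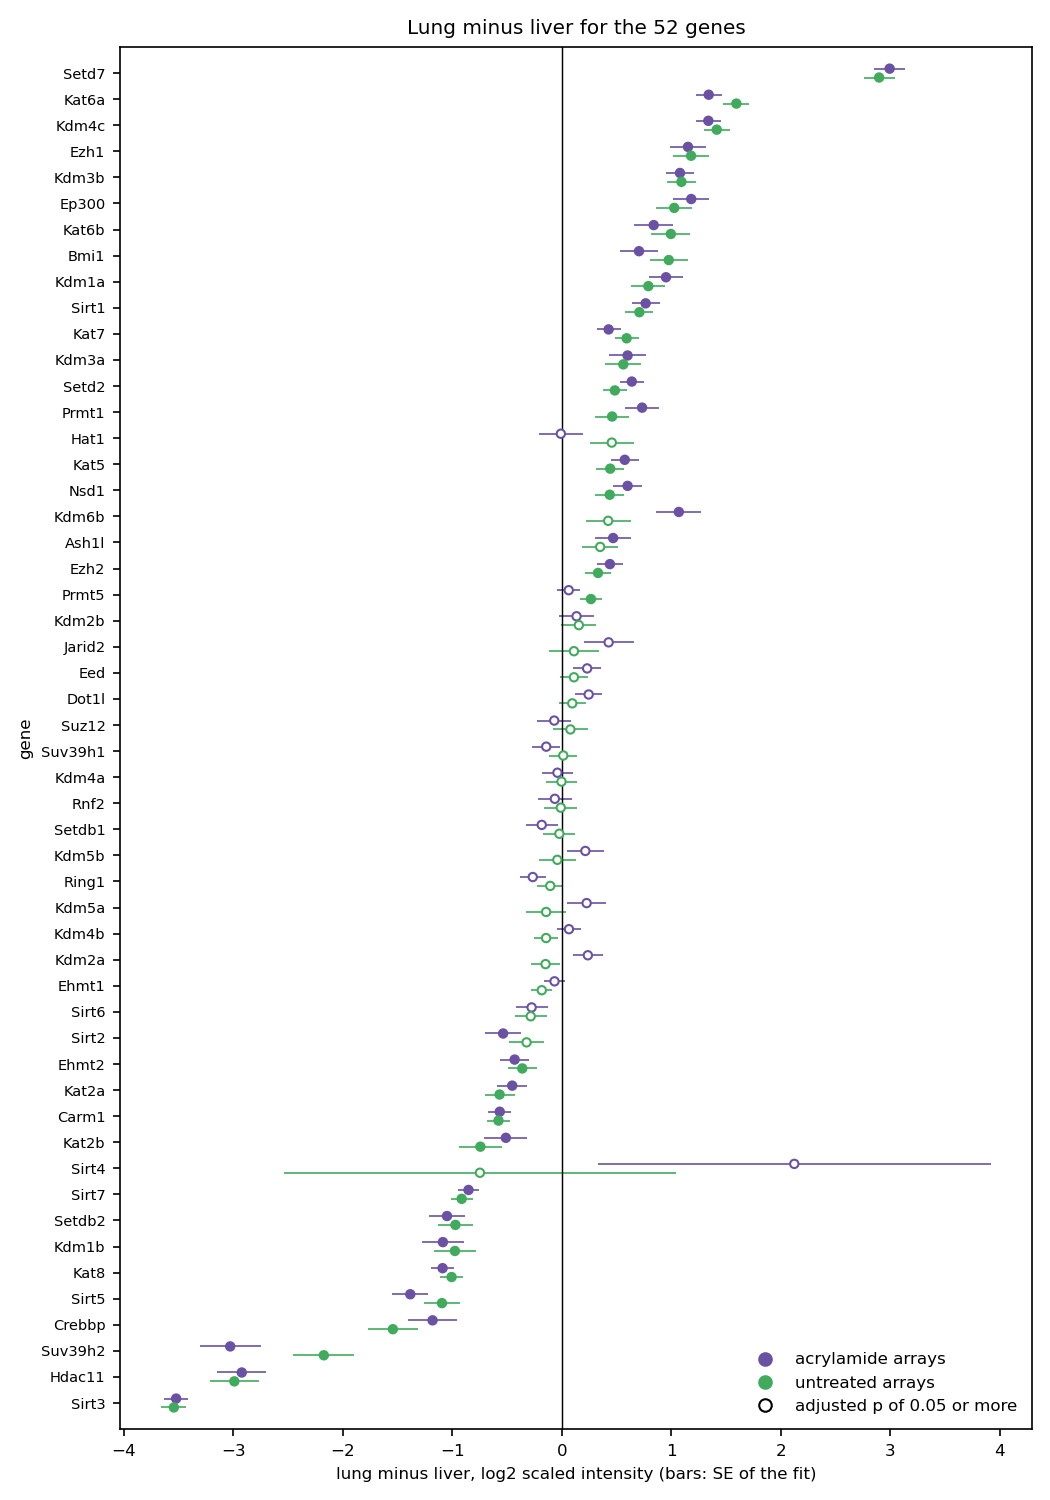
Lung minus liver difference of each of the 52 genes in log2 scaled intensity, for acrylamide arrays (purple) and untreated arrays (green), with bars of 1 SE and open points where adjusted p was 0.05 or more. Setd7 stands highest in both (2.99 with acrylamide and 2.90 untreated) and Sirt3 lowest (-3.52 and -3.54), and Sirt4, with 1 acrylamide liver array below background, has the widest bars.

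Other scalings moved the medians. Quantile normalization moved the median of all genes to 0.00 and that of the 52 genes to 0.17 in the untreated contrast, against -0.34 and 0.05 with the main scaling. Median scaling gave -0.13 for all genes and 0.25 for the 52 genes, with 36 of 52 higher in lung. The share of all calls that were higher in lung was 41.6% with the main scaling, 50.99% with quantile normalization and 30.9% after normexp background correction. Of the genes called, Ehmt2 alone turned its sign under another scaling.

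The promoters of these genes were rich in CpG. RefSeq windows of assembly GRCm38.p6 were matched for 43 of the 52 genes, with 58 start sites in all. The 250 bases before the start held a median of 20 CpG (range 0 to 44), against 10 across 21262 windows of protein-coding genes, and 52 of the 58 windows (89.7%) held at least 10, against 50.1% of all windows. The motif TATAAA, searched on both strands, was in 1 window (1.72%), against 11.6% of all windows. Searched in the same way, the motif CCAAT was in 23 windows (39.7%), against 35.4%, and CACGTG was in 8 (13.8%), against 6.63%. Windows of genes higher in lung held a median of 20.5 CpG and those of genes lower in lung 17.5. The sequences below are the 250 bases before the start of the 3 genes furthest below and the 3 furthest above liver among those with a single window, so that both directions can be compared. CpG is in capitals, and each sequence runs 5′ to 3′ on the strand of its gene.
Hdac11: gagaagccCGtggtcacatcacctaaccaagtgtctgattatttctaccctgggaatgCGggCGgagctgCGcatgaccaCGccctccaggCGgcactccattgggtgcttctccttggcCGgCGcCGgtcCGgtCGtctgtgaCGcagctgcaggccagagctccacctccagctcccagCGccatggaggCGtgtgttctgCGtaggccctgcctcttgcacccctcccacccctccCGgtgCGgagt
Suv39h2: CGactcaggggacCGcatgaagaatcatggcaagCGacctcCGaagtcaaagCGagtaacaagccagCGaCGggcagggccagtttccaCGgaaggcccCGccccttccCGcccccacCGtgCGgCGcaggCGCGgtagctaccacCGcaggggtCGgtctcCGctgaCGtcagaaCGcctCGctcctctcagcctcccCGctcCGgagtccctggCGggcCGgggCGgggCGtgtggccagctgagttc
Crebbp: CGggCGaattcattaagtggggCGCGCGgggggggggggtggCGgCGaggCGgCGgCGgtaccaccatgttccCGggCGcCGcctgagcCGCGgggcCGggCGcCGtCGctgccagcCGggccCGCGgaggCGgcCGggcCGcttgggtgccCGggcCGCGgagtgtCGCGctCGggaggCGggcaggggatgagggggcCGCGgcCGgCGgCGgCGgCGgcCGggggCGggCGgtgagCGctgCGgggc
Setd7: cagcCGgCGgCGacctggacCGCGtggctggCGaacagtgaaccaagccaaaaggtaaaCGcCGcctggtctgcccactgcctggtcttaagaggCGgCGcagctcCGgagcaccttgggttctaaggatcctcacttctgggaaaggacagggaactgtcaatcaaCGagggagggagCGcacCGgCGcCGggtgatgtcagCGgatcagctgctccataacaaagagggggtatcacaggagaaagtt
Ezh1: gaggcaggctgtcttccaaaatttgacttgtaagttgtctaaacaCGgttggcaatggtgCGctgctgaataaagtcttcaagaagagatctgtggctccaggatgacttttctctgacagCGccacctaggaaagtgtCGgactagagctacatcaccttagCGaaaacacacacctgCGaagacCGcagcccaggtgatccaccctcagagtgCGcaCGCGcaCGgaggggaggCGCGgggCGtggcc
Ep300: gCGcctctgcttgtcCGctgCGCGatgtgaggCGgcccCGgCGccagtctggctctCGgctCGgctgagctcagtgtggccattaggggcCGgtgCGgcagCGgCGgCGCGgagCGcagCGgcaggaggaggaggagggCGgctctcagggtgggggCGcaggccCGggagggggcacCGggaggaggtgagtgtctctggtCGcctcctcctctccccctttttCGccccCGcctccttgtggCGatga
Hdac11 lies on the plus strand of chr6:91156565-91156814, Suv39h2 on the minus strand of chr2:3474987-3475236 and Crebbp on the minus strand of chr16:4213405-4213654. Setd7 lies on the minus strand of chr3:51560824-51561073, Ezh1 on the minus strand of chr11:101226464-101226713 and Ep300 on the plus strand of chr15:81585964-81586213. The windows held 17, 27 and 44 CpG in Hdac11, Suv39h2 and Crebbp, which were lower in lung on the spots used. Those of Setd7, Ezh1 and Ep300, which were higher, held 17, 14 and 25. A second Crebbp spot gave the other direction (0.57 untreated), and a second Suv39h2 spot gave -0.26. None of the 6 holds TATAAA on either strand. Of the 6 Hdac11 alone holds CCAAT, on the opposite strand, where the printed sequence reads attgg.

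**Figure D2:**
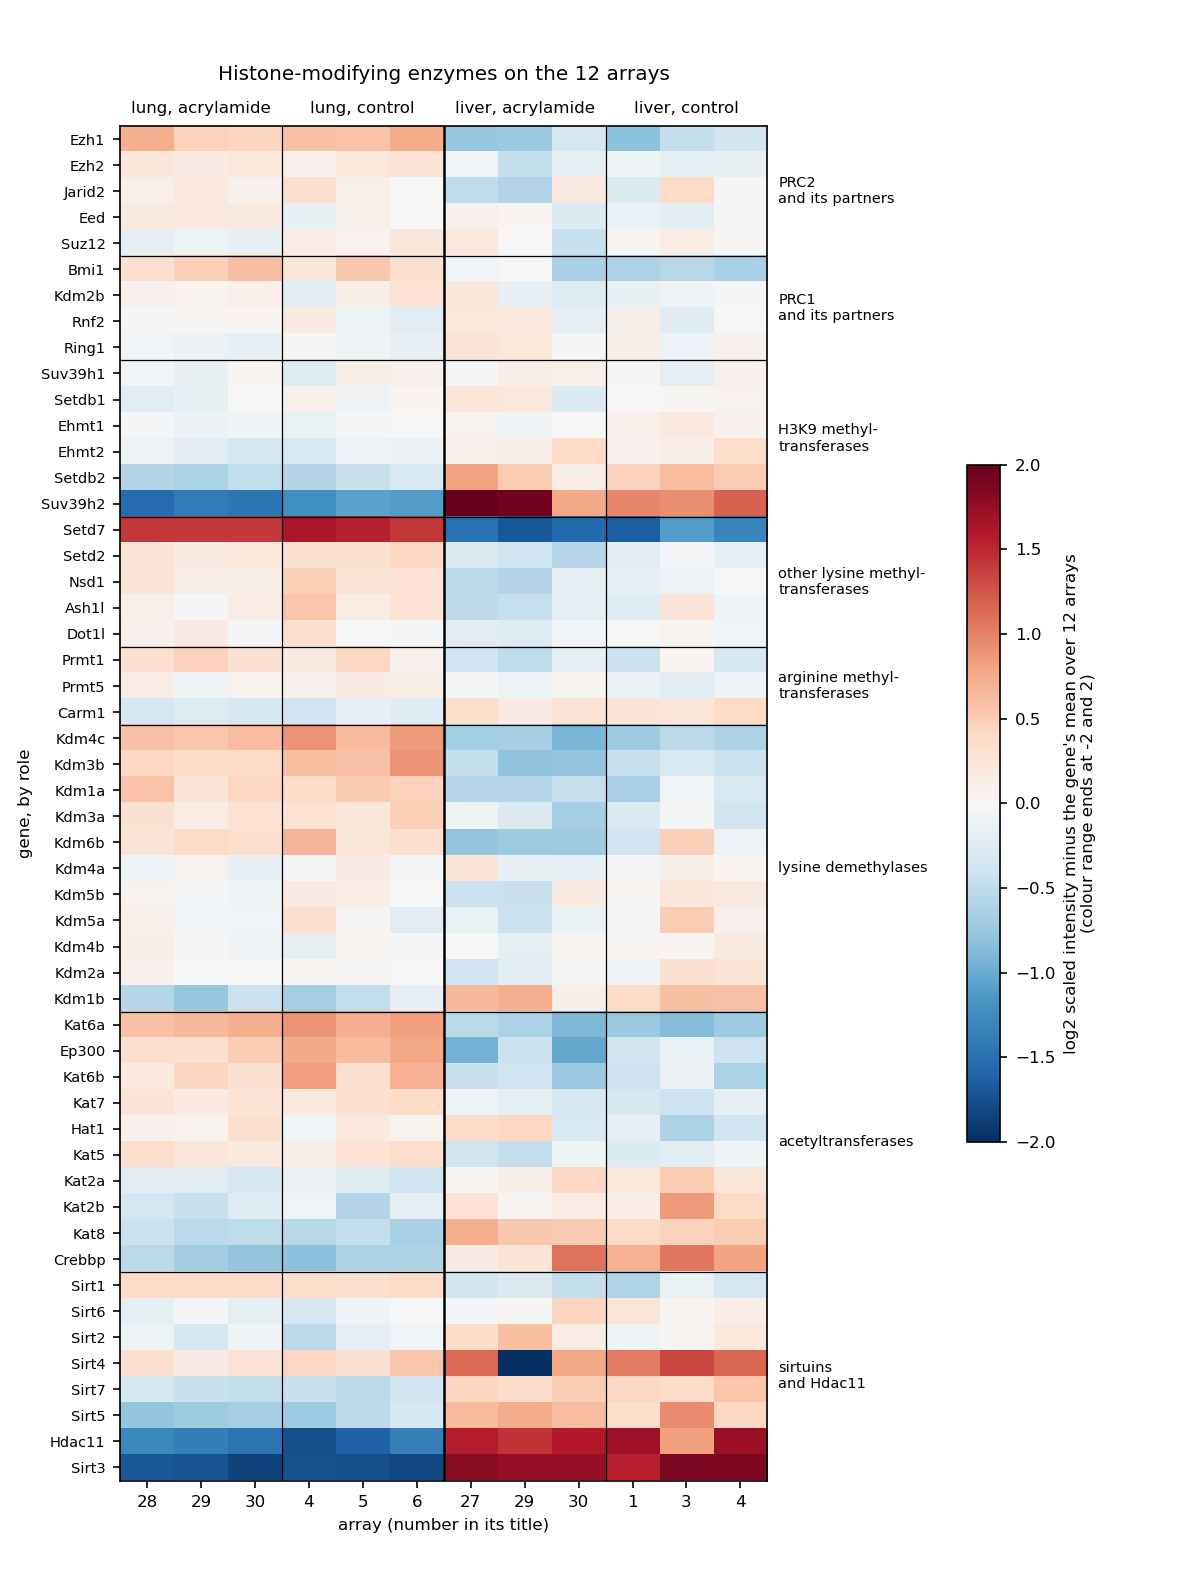
Log2 scaled intensity of the 52 genes, minus each gene's mean over 12 arrays, with genes in rows by role and arrays in columns by group (red higher, blue lower). The lung and liver sides differ most in the rows of Setd7, Sirt3, Hdac11 and Suv39h2, and no row passed the test between the acrylamide and control columns of a tissue.

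In PRC2, the catalytic subunit Ezh1 was higher in lung, and 2 of 5 genes passed in each contrast, both higher. Across all genes 73.4% passed untreated and 74.9% with acrylamide, which is the background for this and the following counts by role. Ezh1 read 17207, 14333 and 14000 in acrylamide lungs and 15632, 15428 and 17467 in untreated lungs, against 6135, 6242 and 8199.9 in acrylamide livers and 5923, 7530.1 and 8104 in untreated livers. Every lung array was above every liver array, with a lung minus liver difference of 1.15 ± 0.16 on acrylamide arrays (adjusted p = 1.01e-04) and 1.18 ± 0.16 on untreated arrays (adjusted p = 8.37e-05). The second catalytic subunit, Ezh2, which is abundant in dividing cells, read 667, 641 and 662 in acrylamide lungs and 610.3, 666 and 682 in untreated lungs, against 551, 412 and 499.9 in acrylamide livers and 537, 499.9 and 518 in untreated livers. All lung arrays were again above all liver arrays, by 0.44 ± 0.12 (adjusted p = 0.00754) with acrylamide and 0.33 ± 0.12 (adjusted p = 0.0304) untreated. The untreated call of Ezh2 was lost without control liver 3 or 4 or control lung 5 or 6 (highest adjusted p = 0.0835), and its 5 spots gave untreated differences of 0.00 to 0.63.

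Eed, the subunit that reads the PRC2 mark, read 10530, 10664 and 10535 in acrylamide lungs and 8387, 9944 and 9376 in untreated lungs, against 9925, 9602 and 7659.9 in acrylamide livers and 8487, 8038 and 9093 in untreated livers. The acrylamide lungs lay above all untreated lungs, by 0.20 ± 0.10, which did not pass (adjusted p = 0.999), and neither tissue contrast passed. Suz12, the scaffold of PRC2, read 1378, 1488 and 1437 in acrylamide lungs and 1756, 1669 and 1862 in untreated lungs, against 1840.2, 1588 and 1163 in acrylamide livers and 1623, 1762 and 1619 in untreated livers. The acrylamide lungs lay below all untreated lungs, with a difference of -0.30 ± 0.09 (limma, unadjusted p = 0.0197, adjusted p = 0.964), and the liver groups overlapped. A second Suz12 spot, above background on all 12 arrays, gave acrylamide differences of -0.07 in lung and -0.37 in liver. Jarid2, a partner that helps to bring PRC2 to chromatin, read 903, 969 and 897 in acrylamide lungs and 1052, 912 and 853 in untreated lungs, against 593, 559.7 and 971 in acrylamide livers and 702, 1111 and 830.1 in untreated livers. Its groups overlapped throughout, and liver acrylamide 30 was well above the other acrylamide livers.

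In PRC1 and its partners, 1 of 4 genes passed in each contrast. Bmi1, a partner of the catalytic ring proteins, read 3159, 3472 and 3804 in acrylamide lungs and 2975, 3622 and 3169.7 in untreated lungs, against 2403, 2501 and 1601 in acrylamide livers and 1632, 1713 and 1601 in untreated livers. Lung was higher by 0.71 ± 0.17 with acrylamide (adjusted p = 0.00383) and 0.98 ± 0.17 untreated (adjusted p = 4.68e-04). Acrylamide livers 27 and 29 lay above the controls and liver 30 level with the lowest of them, for a difference of 0.37 ± 0.21 (adjusted p = 0.782). The ubiquitin ligases Ring1 and Rnf2 and the CpG-binding demethylase Kdm2b had lung minus liver differences of -0.10 to 0.16 on untreated arrays and did not pass.

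Among the methyltransferases of H3 lysine 9, 3 of 6 were lower in lung in both contrasts and none was higher. Suv39h2, which is best known from the mouse germ line and silences pericentric heterochromatin, read 9886, 10879 and 10525 in acrylamide lungs and 12195, 13569 and 13150 in untreated lungs, against 115810, 109040 and 48596 in acrylamide livers and 56490, 54389 and 64883 in untreated livers. Every lung array was below every liver array, with differences of -3.03 ± 0.28 with acrylamide (adjusted p = 3.47e-06) and -2.17 ± 0.28 untreated (adjusted p = 4.42e-05). A second Suv39h2 spot was dim and gave 0.11 and -0.26, so the size of this difference rests on 1 spot. Within the liver, acrylamide arrays 27 and 29 were above all controls and array 30 below all of them, and the difference of 0.54 ± 0.35 did not pass (adjusted p = 0.787). In lung the acrylamide arrays were all below the controls, with a limma difference of -0.31 ± 0.10 (unadjusted p = 0.0171, adjusted p = 0.964).

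The effect of acrylamide on Suv39h2 in lung minus that in liver was -0.85 ± 0.39 and did not pass (adjusted p = 0.994). It passed when liver acrylamide 30 was left out (-1.26, adjusted p = 0.00785) and with array weights (-1.17, adjusted p = 0.0329). Its second spot gave acrylamide differences of 0.29 in lung and -0.08 in liver, of the opposite sign in each tissue.

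Ehmt2, also called G9a, which dimethylates H3 lysine 9, read 19950, 18390 and 16826 in acrylamide lungs and 17422, 19892 and 19785 in untreated lungs, against 23046, 23181 and 28251 in acrylamide livers and 22609, 23378 and 27445 in untreated livers. It was lower in lung, with differences of -0.43 ± 0.13 (adjusted p = 0.0134) and -0.36 ± 0.13 (adjusted p = 0.0309), and under quantile normalization the differences were 0.17 and 0.27, neither passing. The acrylamide call was lost without lung acrylamide 30 and the untreated one without control liver 4 or control lung 4. With slide row blocked, the untreated difference had an adjusted p of 0.0655 in limma. Ehmt1, its partner, read 1624, 1530.3 and 1577 in acrylamide lungs and 1509, 1619 and 1654 in untreated lungs, against 1742, 1569 and 1645 in acrylamide livers and 1779.8, 1894 and 1751 in untreated livers. The acrylamide livers lay just below the control livers, with a difference of -0.13 ± 0.13 (adjusted p = 0.845), and the lung groups overlapped. Setdb2 was lower in lung, with differences of -1.05 ± 0.16 with acrylamide and -0.97 ± 0.16 untreated and passed in both, while Suv39h1 and Setdb1, which silences retroelements, lay within -0.02 to 0.01 on untreated arrays.

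Among the other lysine methyltransferases, 4 of 5 passed with acrylamide and 3 of 5 untreated, all higher in lung. Setd7, a monomethylase of H3 lysine 4 that also modifies other proteins, read 5105, 5079 and 5090.2 in acrylamide lungs and 5916, 5575 and 5118 in untreated lungs, against 679.5, 589 and 651 in acrylamide livers and 607, 879 and 762 in untreated livers. The lung arrays were far above the liver arrays, by 2.99 ± 0.14 with acrylamide (adjusted p = 2.20e-08) and 2.90 ± 0.14 untreated (adjusted p = 2.89e-08), which is 7.46-fold higher in untreated lung. Setd2, which trimethylates H3 lysine 36, and Nsd1, which dimethylates it, were higher in lung by 0.49 ± 0.11 and 0.44 ± 0.13 untreated, though a second Nsd1 spot gave -0.02. Ash1l, a related enzyme, passed with acrylamide alone (0.47 ± 0.16), and that call was lost without lung acrylamide 28 or 30 or liver acrylamide 27 or 29. Setd2 was lower with acrylamide without overlap in both tissues, with -0.12 ± 0.09 in lung and -0.28 ± 0.15 in liver, and neither passed. A second Setd2 spot above background on all 12 arrays gave -0.26 in lung and 0.07 in liver, and the mean of its spots gave 0.041 in lung and -0.086 in liver. Dot1l, the methyltransferase of H3 lysine 79, did not pass, and its second, dimmer spot gave -2.97 against 0.10 ± 0.13 for the spot used.

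The arginine methyltransferases split by direction. Prmt1, which makes most of the asymmetric dimethylarginine of the cell, read 14456, 15790 and 14079 in acrylamide lungs and 12880, 15255 and 12094 in untreated lungs, against 8628, 8005 and 10114 in acrylamide livers and 8517, 11680 and 9177 in untreated livers. The tissue difference was 0.73 ± 0.15 with acrylamide (adjusted p = 0.0015) and 0.46 ± 0.15 untreated (adjusted p = 0.0206), and the untreated call was lost without control liver 1 or 4 or control lung 5 (highest adjusted p = 0.0799). Its acrylamide difference in lung was 0.15 ± 0.12 with overlapping groups. Carm1, a coactivator of nuclear receptors, was lower in lung, with differences of -0.57 ± 0.11 and -0.58 ± 0.11 and passed in both contrasts. Prmt5, which makes symmetric dimethylarginine, differed by 0.06 ± 0.10 with acrylamide, which did not pass, and by 0.27 ± 0.10 untreated (adjusted p = 0.0385), a call that was lost without any 1 of the 6 untreated arrays, as it was when slide row entered as a block (adjusted p = 0.0523).

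Of the 11 lysine demethylases, 6 passed with acrylamide, 5 higher and 1 lower in lung, and 5 passed untreated, 4 higher and 1 lower. Kdm4c, which removes methyl groups from H3 lysine 9, read 1376, 1337 and 1411 in acrylamide lungs and 1709.6, 1419 and 1658 in untreated lungs, against 573, 576 and 486 in acrylamide livers and 562, 630.5 and 598 in untreated livers. Every lung array was above every liver array, by 1.34 ± 0.12 with acrylamide (adjusted p = 2.39e-06) and 1.42 ± 0.12 untreated (adjusted p = 1.57e-06). Kdm3b, which acts on the same lysine, read 663, 645 and 657 in acrylamide lungs and 754, 747 and 930.4 in untreated lungs, against 358, 287 and 289.6 in acrylamide livers and 361, 402 and 372 in untreated livers. It was higher in lung by 1.08 ± 0.13 (adjusted p = 2.81e-05) and 1.09 ± 0.13 (adjusted p = 2.56e-05), and the acrylamide arrays lay below the controls without overlap in lung, with -0.30 ± 0.12 (limma, unadjusted p = 0.0447), and in liver, with -0.29 ± 0.15, neither passing after adjustment. Kdm1b, a demethylase of H3 lysine 4, read 2528, 2214 and 2776 in acrylamide lungs and 2330.3, 2656 and 3344 in untreated lungs, against 5849, 6200 and 4092 in acrylamide livers and 4924, 5665 and 5642 in untreated livers. It was the 1 demethylase lower in lung, with differences of -1.09 ± 0.19 (adjusted p = 4.42e-04) and -0.98 ± 0.19 (adjusted p = 9.15e-04). Its relative Kdm1a, also called LSD1, went the other way by 0.95 ± 0.16 and 0.79 ± 0.16 and passed in both, as did Kdm3a.

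Kdm6b, which removes the PRC2 mark and is induced in inflammation, had the lowest unadjusted p of the 52 genes in liver. Kdm6b read 1326, 1457 and 1406 in acrylamide lungs and 1781, 1309 and 1393 in untreated lungs, against 641, 676 and 679 in acrylamide livers and 843, 1544 and 1032 in untreated livers. All 3 acrylamide livers lay below the controls, with a limma difference of -0.73 ± 0.24 (unadjusted p = 0.0219, adjusted p = 0.782), and the controls themselves spread over more than this gap. The lung groups overlapped. Lung was above liver by 1.07 ± 0.21 with acrylamide (adjusted p = 8.24e-04) and by 0.42 ± 0.21 untreated, which did not pass (adjusted p = 0.0852) but did without control liver 3 (0.67, adjusted p = 0.00402). The difference between those contrasts was 0.65 ± 0.29 and did not pass (adjusted p = 0.994).

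Kdm5a, a demethylase of trimethylated H3 lysine 4, read 1938, 1746 and 1753 in acrylamide lungs and 2271, 1833 and 1572 in untreated lungs, against 1658, 1348 and 1653 in acrylamide livers and 1781, 2569 and 1924 in untreated livers. The acrylamide livers lay below the controls, with -0.42 ± 0.19 (adjusted p = 0.782), while a second spot above background on all arrays gave 0.01. Kdm2a, a demethylase of H3 lysine 36, read 3156, 2931 and 2944 in acrylamide lungs and 3034, 3017 and 2964 in untreated lungs, against 2256, 2532 and 2902 in acrylamide livers and 2808, 3704 and 3548 in untreated livers. Its liver difference of -0.38 ± 0.18 came with overlapping groups (adjusted p = 0.782). Kdm4b was lower without overlap in acrylamide livers, with -0.13 ± 0.14, and its other spot gave 0.29. In untreated tissue Kdm2a, Kdm4a, Kdm4b, Kdm5a and Kdm5b differed by -0.15 to 0.00 and did not pass, although dimmer spots of Kdm4b and Kdm5b gave -2.96 and -2.50.

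Among the acetyltransferases 9 of 10 passed in each contrast, 5 higher and 4 lower in lung, against 73.4% of all genes untreated and 74.9% with acrylamide. The exception was Hat1 (0.46 untreated and -0.01 with acrylamide), whose second, dimmer spot, above background on all 12 arrays, gave 1.21 and 1.36. Kat6a, which acetylates histone H3, read 2282, 2393 and 2493 in acrylamide lungs and 2825, 2515 and 2673 in untreated lungs, against 1042, 979 and 818 in acrylamide livers and 903, 828 and 922 in untreated livers. Lung lay above liver by 1.34 ± 0.12 with acrylamide (adjusted p = 2.54e-06) and 1.59 ± 0.12 untreated (adjusted p = 6.82e-07). Its paralogue Kat6b read 334, 391 and 361 in acrylamide lungs and 514, 363 and 471 in untreated lungs, against 215, 220.3 and 174 in acrylamide livers and 219, 268 and 189 in untreated livers. It was also higher in lung, by 0.84 ± 0.18 (adjusted p = 0.00155) and 0.997 ± 0.18 (adjusted p = 4.97e-04). In lung, Kat6a was lower with acrylamide without overlap, with -0.16 ± 0.10, and Kat6b was lower with overlapping groups, with -0.30 ± 0.16, and neither passed.

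Ep300 and Crebbp, paralogous coactivators that acetylate H3 at enhancers, differed between the tissues in opposite directions on the spots used. Ep300 read 559.5, 558 and 622 in acrylamide lungs and 753, 686 and 761 in untreated lungs, against 230.2, 332 and 218 in acrylamide livers and 345, 403 and 334 in untreated livers. Lung was higher by 1.18 ± 0.16 (adjusted p = 7.91e-05) and 1.03 ± 0.16 (adjusted p = 2.20e-04), and a second spot gave 1.16 and 1.44. Crebbp read 7155, 6359 and 5997 in acrylamide lungs and 5862, 6697 and 6775 in untreated lungs, against 11648, 12340 and 22064 in acrylamide livers and 16814, 21613 and 18062 in untreated livers. Lung was lower, with differences of -1.18 ± 0.23 (adjusted p = 8.07e-04) and -1.54 ± 0.23 (adjusted p = 1.22e-04), but a second Crebbp spot, above background on all 12 arrays, gave 0.65 and 0.57, so the direction differed between spots of the gene.

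Ep300 was also lower on every acrylamide array than on any control array of its tissue, with limma differences of -0.34 ± 0.10 in lung (unadjusted p = 0.0151, adjusted p = 0.964) and -0.49 ± 0.21 in liver (unadjusted p = 0.0524, adjusted p = 0.782). Its second spot gave -0.56 in lung and -0.28 in liver. None of these passed after adjustment over all genes.

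Kat8, the acetyltransferase of H4 lysine 16, read 4307, 3988 and 4086 in acrylamide lungs and 3934, 4181 and 3702 in untreated lungs, against 9607, 8459 and 8298 in acrylamide livers and 7521, 8000.4 and 8193 in untreated livers. It was lower in lung, with limma differences of -1.09 ± 0.10 with acrylamide (adjusted p = 5.02e-06) and -1.01 ± 0.10 untreated (adjusted p = 9.22e-06). A second, dimmer Kat8 spot, above background on 11 arrays, gave 0.40 and 0.24, so the direction differed between spots of the gene. The acrylamide livers lay above the controls by 0.15 ± 0.13 (limma, adjusted p = 0.84), whereas the second spot gave -0.36. Hat1, which acetylates newly made histone H4, read 1486, 1469 and 1743 in acrylamide lungs and 1343, 1598 and 1479 in untreated lungs, against 1828, 1862 and 1137 in acrylamide livers and 1248, 918 and 1071 in untreated livers. Acrylamide livers 27 and 29 were above all controls and liver 30 was within them, for 0.55 ± 0.25 (adjusted p = 0.782), the highest liver difference of the 52 genes. Kat5 and Kat7 were higher in lung by 0.44 ± 0.13 and 0.59 ± 0.11 untreated, and Kat2a and Kat2b, related to yeast Gcn5, were lower, with -0.57 ± 0.14 and -0.74 ± 0.20. The acrylamide call of Kat2b was lost without lung acrylamide 28, 29 or 30 or liver acrylamide 27 or 30, and also when slide row was blocked (adjusted p = 0.0867). With median scaling Kat2b passed in neither contrast (limma, adjusted p = 0.202 with acrylamide and 0.0522 untreated). The acrylamide call of Kat2a was lost with median scaling (limma, adjusted p = 0.107) and quantile normalization (adjusted p = 0.113).

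Among the sirtuins and Hdac11, 6 of 8 passed with acrylamide, 1 higher and 5 lower in lung, and 5 of 8 untreated, 1 higher and 4 lower. Sirt3, the main deacetylase of mitochondrial enzymes, read 4356, 4290.5 and 3942 in acrylamide lungs and 4219, 4195 and 4027 in untreated lungs, against 49367, 47379 and 47688 in acrylamide livers and 41739, 52369 and 51540 in untreated livers. Lung was far lower, with differences of -3.52 ± 0.11 with acrylamide (adjusted p = 1.53e-09) and -3.54 ± 0.11 untreated (adjusted p = 1.52e-09), which is 11.6-fold lower in untreated lung. Sirt5, a mitochondrial enzyme that removes succinyl and malonyl groups, read 1283, 1343 and 1380.5 in acrylamide lungs and 1325, 1522 and 1745 in untreated lungs, against 3410.3, 3672 and 3371 in acrylamide livers and 2798, 4202 and 2909.6 in untreated livers. It was lower in lung, with differences of -1.38 ± 0.17 (adjusted p = 2.76e-05) and -1.09 ± 0.17 (adjusted p = 1.58e-04), and the mean with a second, dim spot reversed the untreated difference to 0.04.

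Sirt4, the third mitochondrial sirtuin, read 1397, 1244 and 1353 in acrylamide lungs and 1474, 1363 and 1636 in untreated lungs, against 2421, 6.18 and 1899 in acrylamide livers and 2264, 2782 and 2466 in untreated livers. Its spot on liver acrylamide 29 was below background, the only such value on the spots used for the 52 genes, and the other 5 liver arrays were above every lung array. The acrylamide difference of -3.03 ± 2.27 in liver (adjusted p = 0.813) was -0.22 without that array, and the gene's other spots gave 0.14 each. The tissue difference of 2.12 ± 1.79 on acrylamide arrays turned to -0.69 without that array (adjusted p = 0.00338). The untreated difference of -0.75 ± 1.79 did not pass with all 12 arrays in the fit (adjusted p = 0.72) and passed in a fit of the 6 untreated arrays (adjusted p = 0.00351), and the other spots gave -1.06 and -1.40.

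The nuclear sirtuins did not move together. Sirt1, a deacetylase of histones and transcription factors, read 4997, 4970.5 and 4937 in acrylamide lungs and 4849.8, 4736 and 4966 in untreated lungs, against 2939, 3107 and 2728 in acrylamide livers and 2493, 3464 and 3023 in untreated livers. It was the 1 sirtuin higher in lung in both contrasts, by 0.77 ± 0.13 (adjusted p = 3.02e-04) and 0.71 ± 0.13 (adjusted p = 5.19e-04), and the mean over its spots did not pass (0.56 untreated, adjusted p = 0.06). Sirt7, which works in the nucleolus, read 9724, 9075 and 8929 in acrylamide lungs and 9106, 8537 and 9382 in untreated lungs, against 16655, 16018 and 17347 in acrylamide livers and 16564, 16153 and 18222 in untreated livers. It was lower in lung, with differences of -0.85 ± 0.10 (adjusted p = 2.30e-05) and -0.91 ± 0.10 (adjusted p = 1.34e-05). Sirt6, which acts on H3 lysine 9 and in DNA repair, read 465, 513 and 467 in acrylamide lungs and 419, 501 and 525 in untreated lungs, against 516, 539 and 710.3 in acrylamide livers and 624, 549 and 580.1 in untreated livers. Its lung and liver arrays overlapped, and the differences of -0.27 ± 0.15 and -0.28 ± 0.15 did not pass. Sirt2, mostly cytoplasmic, read 2762, 2385 and 2829 in acrylamide lungs and 2066, 2601 and 2854 in untreated lungs, against 3826, 4496 and 3298 in acrylamide livers and 2837, 3075 and 3430.2 in untreated livers. It was lower in lung, with differences of -0.54 ± 0.16 with acrylamide (adjusted p = 0.0127) and of -0.32 ± 0.16 untreated, which did not pass (adjusted p = 0.0987). The acrylamide call was lost without liver acrylamide 29 or lung acrylamide 29, and its acrylamide differences of 0.09 ± 0.15 in lung and 0.31 ± 0.17 in liver came with overlapping groups.

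Hdac11, the sole class IV deacetylase, which removes long fatty acyl groups, read 137, 128 and 119 in acrylamide lungs and 98.7, 109 and 129 in untreated lungs, against 993, 909 and 1009 in acrylamide livers and 1083, 586 and 1095 in untreated livers. Control liver 3 was the lowest liver array and still above every lung array. Lung was lower, with differences of -2.92 ± 0.22 with acrylamide (adjusted p = 8.91e-07) and -2.99 ± 0.22 untreated (adjusted p = 7.62e-07), which is 7.94-fold lower in untreated lung, and a second spot gave -2.77 untreated. Its acrylamide difference in lung was 0.20 ± 0.13 (adjusted p = 0.999) with overlapping groups.

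**Figure D3:**
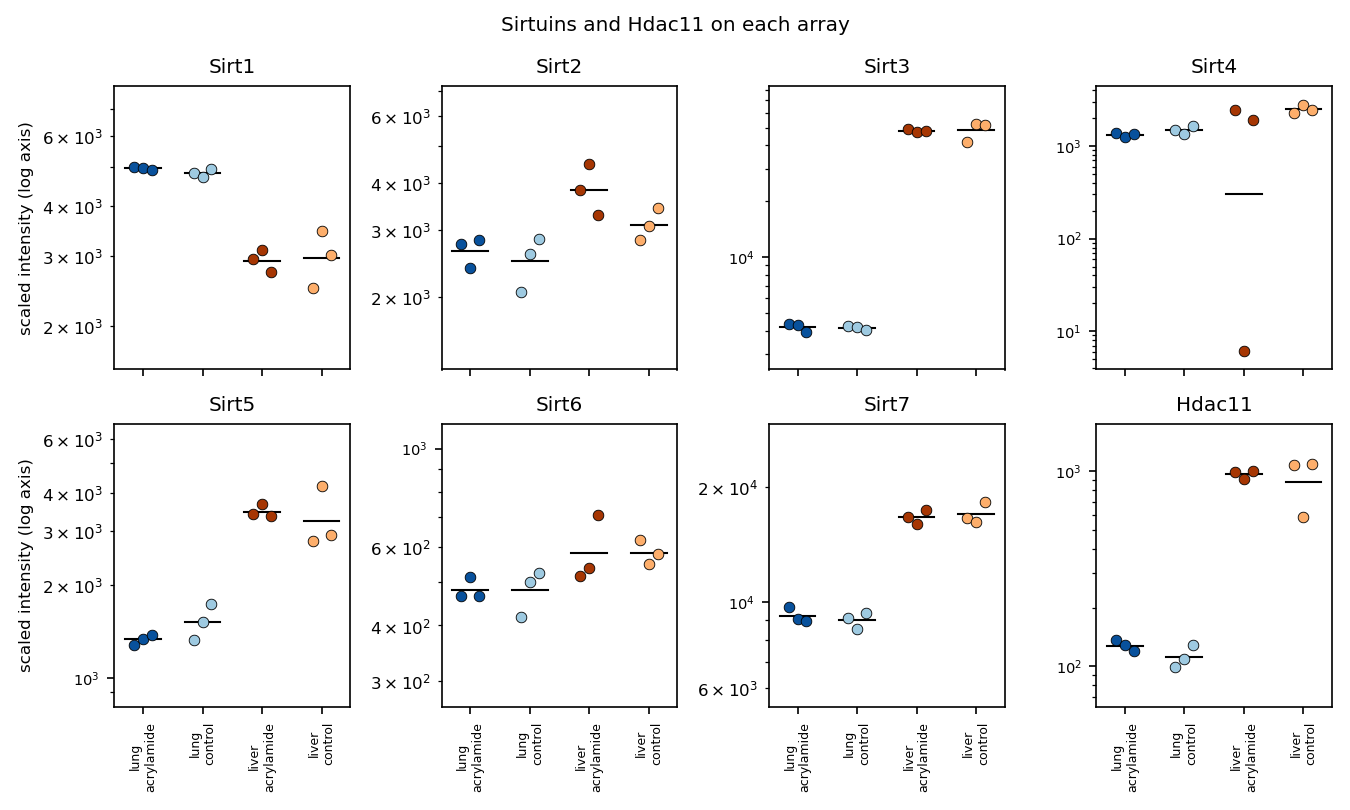
Scaled intensity (log axis, 75th percentile of each array = 1000) of the 7 sirtuins and Hdac11, with a point for each of the 3 arrays of a group and a line at the mean of their log values. Sirt3 and Hdac11 are low in both lung groups, Sirt1 is higher there, and 1 acrylamide liver array of Sirt4 lies far below the rest.

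The spots of a gene did not always agree on the tissue difference. Of the 52 genes, 27 had several spots above background on all 12 arrays, the used one included. Of these, 15 were called in the untreated contrast, and in 13 all spots had the same sign. The exceptions were Crebbp and Nsd1. Among the 27, spots of 6 genes, Crebbp, Dot1l, Kdm4b, Kdm5b, Setdb2 and Suv39h2, differed by over 1 log2 unit. Spots above background on fewer than 12 arrays were left out of these counts. Of those, spots of the called genes Kat8 (0.24), Sirt5 (1.18), Kat6b (-0.20) and Setd2 (-0.30) had the opposite sign to the spot used. Sirt3 and Setd7, the furthest below and above liver, and Ezh1 had 1 spot each, so their differences could not be compared between spots. The transcripts that each spot reads were not compared here.

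**Figure D4:**
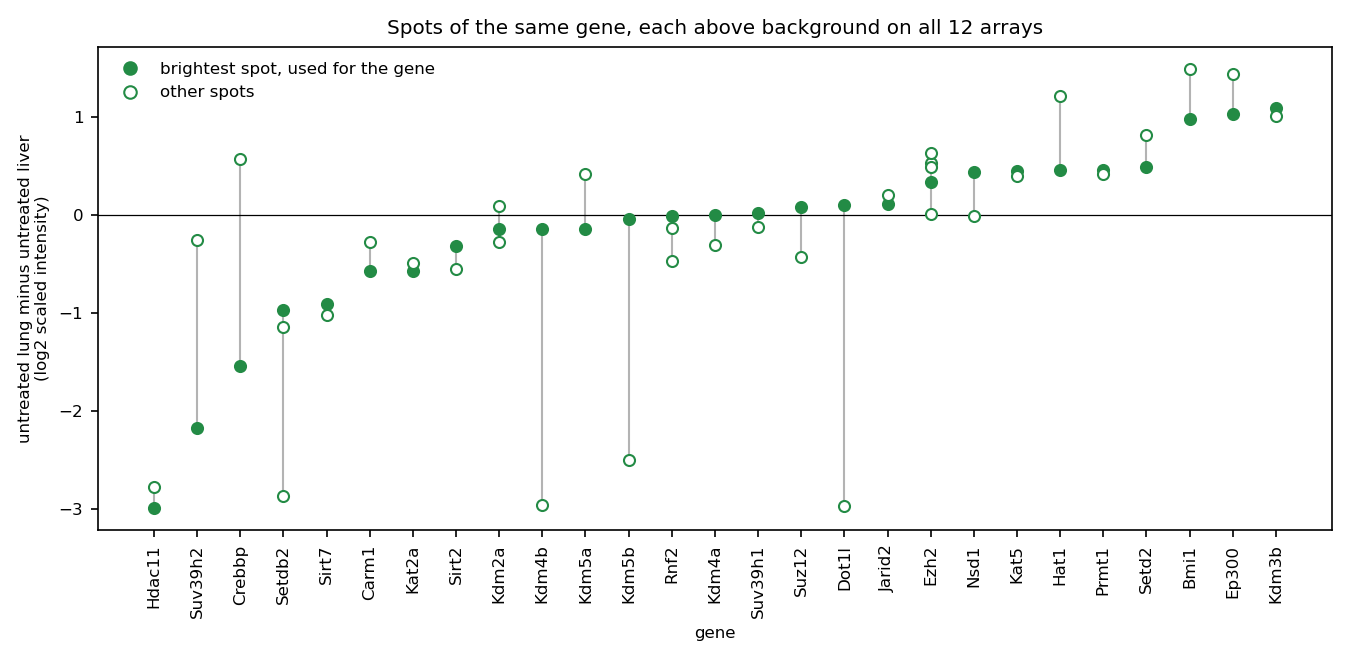
Untreated lung minus untreated liver in log2 scaled intensity for each spot of the 27 genes with several spots above background on all 12 arrays, with the brightest spot filled and the others open. Spots of Hdac11, Sirt7, Kat2a, Kat5, Prmt1 and Kdm3b lie close together, and those of Crebbp, Suv39h2, Dot1l, Kdm4b and Kdm5b lie far apart.

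The comparison of acrylamide with control gave no call at adjusted p under 0.05 among the 52 genes, and none among all genes, in lung (0% of 22226) or in liver (0% of 21076). At unadjusted p under 0.05, 4 of the 52 genes stood out in lung, Ep300, Suv39h2, Suz12 and Kdm3b, all lower with acrylamide, against 4.95% of all genes. In liver Kdm6b alone did, against 6.12% of all genes. The median difference was -0.05 in lung, with 34 of 52 lower, against -0.01 and 51.6% lower among all genes, and -0.08 in liver, with 35 of 52 lower, against -0.02 and 53.2%. By role, the difference in lung was negative for 3 of 5 genes of PRC2, 1 of 4 of PRC1, 6 of 6 methyltransferases of H3 lysine 9, 5 of 5 other lysine methyltransferases, 2 of 3 arginine methyltransferases, 9 of 11 demethylases, 6 of 10 acetyltransferases and 2 of 8 sirtuins and Hdac11. In liver it was negative for 4 of 5, 0 of 4, 2 of 6, 5 of 5, 2 of 3, 11 of 11, 6 of 10 and 5 of 8 in the same order of roles. Median scaling turned the lung count of the sirtuins and Hdac11 to 6 of 8, and the mean of a gene's spots gave 3 of 4 for PRC1 in lung and 7 of 11 for the demethylases in liver. With median scaling 43 of 52 were lower in lung, where the median of all genes was then -0.05. In liver, the mean of a gene's spots gave 28 of 52 lower, with a median of -0.053 against 0.007 for all genes. After normexp the liver median was -0.075 for the 52 genes and -0.083 for all genes, and 26 of the 52 lay above the latter.

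Without overlap between the groups, 11 of the 52 genes stood apart in lung, 10 lower (Suz12, Suv39h2, Setd2, Setd7, Nsd1, Ash1l, Kdm3b, Kdm4c, Ep300 and Kat6a) and Eed higher, against 10.9% of all genes (6.8% lower and 4.11% higher). In liver 8 did, 7 lower (Setd2, Ehmt1, Kdm3b, Kdm4b, Kdm5a, Kdm6b and Ep300) and Kat8 higher, against 12.2% (6.78% lower and 5.43% higher). Setd7, Nsd1, Ash1l and Kdm4c had lung differences of -0.25 to -0.12. In liver the Kupffer cell and macrophage markers, 8 of 8 above background, summed to 33733 to 37422 with acrylamide and 23354 to 32186 in controls, and the fibroblast and matrix markers, 5 of 5, to 60976 to 69367 with acrylamide and 74752 to 85968 in controls. The 4 club cell markers also stood apart in liver, at 179146 to 198991 with acrylamide and 144493 to 169008 in controls. Sums of the other marker lists overlapped between the liver groups, and those of all lists overlapped between the lung groups. The part of cell makeup in the values of the histone enzymes was not tested.

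**Figure D5:**
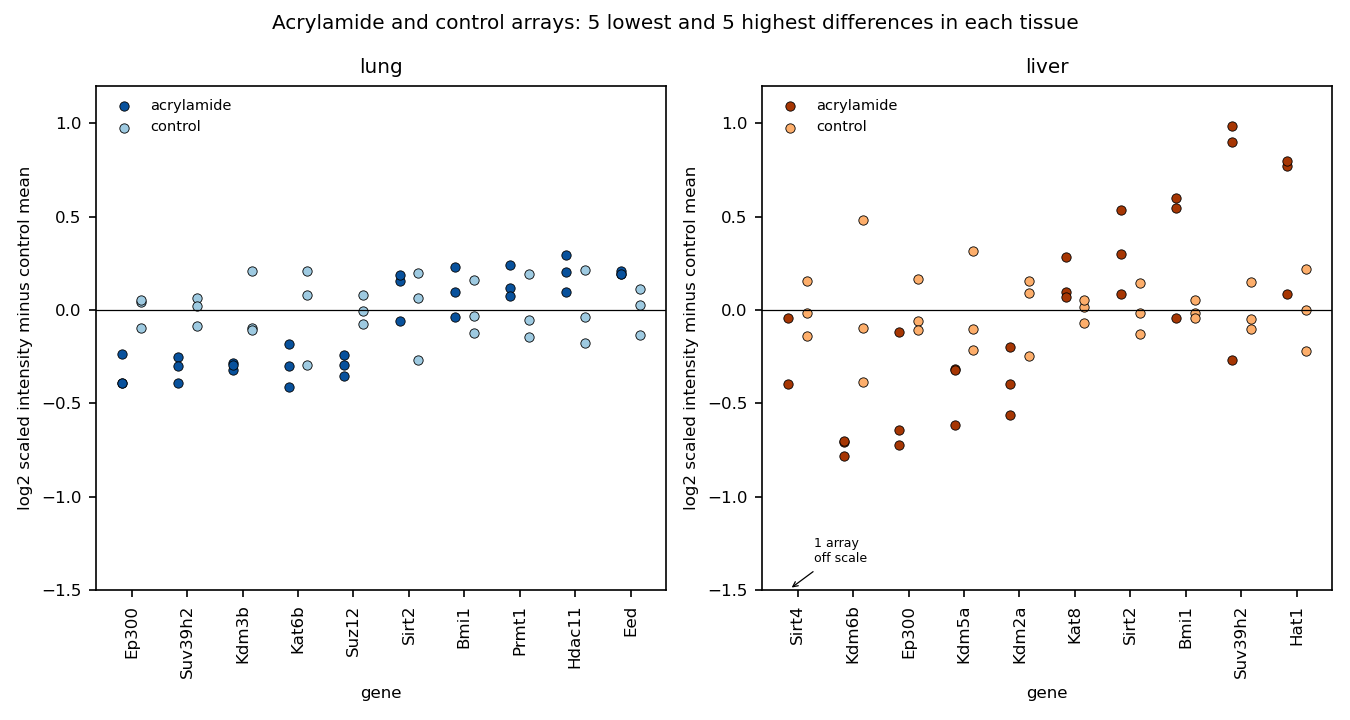
Log2 scaled intensity of acrylamide arrays (dark) and control arrays (pale) minus the control mean, in lung and in liver, for the 5 genes with the lowest and the 5 with the highest difference in each tissue, a point for each array. In lung the acrylamide points of Ep300, Suv39h2, Kdm3b and Suz12 lie below all control points, and in liver those of Kdm6b, Ep300 and Kdm5a do, while Suv39h2, Bmi1 and Hat1 in liver have 1 acrylamide point apart from the other two.

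The acrylamide difference in lung minus that in liver passed for none of the 52 genes and for none of 23283 genes (0%), and at unadjusted p under 0.05 it stood at 0 of the 52 and 4.44% of all genes. It passed for 136 genes without liver acrylamide 30 and for 8 without liver acrylamide 27, and Suv39h2 was the 1 histone enzyme among the 136.

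A wider list of 91 genes held other enzymes of these kinds, partner subunits, readers of the marks and enzymes that make NAD and S-adenosylmethionine. Of its 90 genes on the array, 51 passed between untreated lung and untreated liver, 25 higher and 26 lower (56.7%). Across all genes 73.4% passed, 30.5% higher and 42.9% lower. Prmt2, an arginine methyltransferase, and Cbx6, a Polycomb reader, were the furthest above liver, by 5.38 ± 0.12 and 3.46 ± 0.13. Mat1a, which makes S-adenosylmethionine in liver, and Ahcy, which clears the S-adenosylhomocysteine left by methyltransferases, were the furthest below it, with -8.45 ± 0.11 and -6.73 ± 0.36. None of the listed genes passed in an acrylamide comparison. Their unadjusted limma p was under 0.05 for 4 of 90 in lung (4.44%) and 5 of 89 in liver (5.62%). Among all genes the shares were 4.95% and 6.12%. Of the listed genes, 60 of 90 (66.7%) were lower with acrylamide in lung and 57 of 89 (64.0%) in liver, against 51.6% and 53.2% of all genes.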

How the data were processed

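Each deposited array file holds 1 Cy3 intensity per spot on a linear scale, per the file headers, and the submitters' processing notes name Agilent Feature Extraction 10.7. Background subtraction is not stated for the deposited intensities. The authors' series matrix equals these intensities times 1 factor per array, with the 75th percentile at 1000, and served as an alternative.

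Control spots (1319 of 62976) were dropped, and log2 intensity minus the 75th percentile of each array was used. Spots were named through their Entrez number (38054), accession (715) or file name (2242), with RefSeq names of GRCm38.p6. The brightest spot over 12 arrays stood for a gene. Negative control spots (308) set the background limit of an array at their 95th percentile, and genes above it on at least 3 arrays of a fit were tested, as all 52 were.

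Acrylamide minus control was fitted within each tissue, and the interaction and the lung minus liver contrasts over 12 arrays, with limma 3.58.1 (lmFit, eBayes) in R 4.3.3 and Benjamini-Hochberg adjustment over all genes. Python 3.11.15 and matplotlib 3.10.9 drew the figures. Precision is limited by the 3 arrays of each group. The fits were tested on simulated data.

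The genes, the lists and the rule for naming were chosen with earlier results of these data known. The rule gives array values for the 5 highest and 5 lowest acrylamide differences in each tissue, the 7 highest and 7 lowest untreated tissue differences, members past a threshold with acrylamide, and a set of 18 genes of PRC2, Ehmt1 and Ehmt2, Kdm6b, Ep300, Crebbp, the sirtuins and Hdac11. Differences of other members were chosen for naming after their values were seen. Alternatives were other scalings, the series matrix, normexp, the background filter, the mean of spots, an intensity trend, array weights, slide row, which arrays enter the fit, each array left out, and the title number as a block. The check of the numbers shared by lung and liver arrays (29, 30 and 4) found correlations of deviations of -0.02, -0.16 and 0.01, so they were not treated as pairs, although the labels do not state whether they mark the same animal.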

Additional observations from a re-analysis of the deposited data

How the results depend on the processing

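Of the counts of calls recomputed under the alternatives, 183 stayed within 1.5 times the reported one and 9 did not. The 183 include counts of 0 that stayed 0 in the acrylamide comparisons and the interaction, and all 9 moved up from a reported 0. With all 12 arrays in the fit, 2 genes passed for acrylamide in liver, and without 1 array 0 to 1 did, none of them a histone enzyme. For the difference between the tissues in the acrylamide effect, array weights gave 139 genes and 1 histone enzyme (Suv39h2), and leaving out 1 array gave 0 to 136 genes and 0 to 1 histone enzyme. Members called between untreated tissues numbered 27 to 34 over all alternatives, and 23 of 31 kept their direction and call in every one, while 8 lost the call in at least 1 alternative, 2 of which (Ehmt2 and Sirt5) turned sign there. Among the genes named, the mean of a gene's spots reversed Kdm4b (0.078), Kdm5a (0.27) and Kat8 (-0.10) in liver, Setd2 (0.041) and Bmi1 (-0.047) in lung, Sirt5 (0.044) between untreated tissues and Sirt4 (-0.35) between acrylamide tissues. Quantile normalization turned Ehmt2 to 0.27 untreated and 0.17 with acrylamide. Within slide row 1, an alternative chosen after seeing the data, lung Prmt1 was -0.10 and Bmi1 -0.063, and within row 2 Sirt2 was -0.026. Without 1 array each, Sirt2 in lung ran between -0.039 and 0.19, and Sirt4 between acrylamide tissues ran between -0.69 and 3.62. The cause was not tested. Whether a number shared by a lung and a liver array marks the same animal is not stated, and the deviations of such arrays did not correlate above 0.1, so they were not treated as pairs. With the replicate block 31 and 33 histone enzymes were called between untreated and between acrylamide tissues and 0 in the interaction, as without it.

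Each group holds 3 arrays, and each lung slide row leaves 1 group with a single array, which the fit takes to vary like the rest. Slide and slide row were read from the title codes, and slide follows tissue. Spots near background, such as the second spot of Sirt5, carry little signal. The second spots of Kat8 and Suv39h2 were dimmer than those used but were above background on 11 and 12 arrays.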
